A study of Homo sapiens with 32 samples.

Results

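SNGM is a human endometrial cancer cell line that the labels give as CTNNB1-mutated, CTNNB1 being the gene of beta-catenin. The question was which transcripts differed after 24 h with paclitaxel at 11.7 nM, the viability IC50 of the line, from vehicle (0.1% DMSO). The comparison rests on 4 of the 32 RNA sequencing libraries of the study, chosen by their labels alone: 2 paclitaxel and 2 vehicle libraries. Another 4 SNGM libraries were set beside it, 2 with SM08502 at 350.7 nM and 2 with the combination of 350.7 nM SM08502 and 11.7 nM paclitaxel, also for 24 h. SM08502 inhibits the CDC-like kinases, which phosphorylate splicing factors. Paclitaxel and vehicle libraries of 3 other endometrial cancer lines were used in the same way: Ishikawa (11 nM), its CTNNB1-mutated derivative Ishikawa-S33Y (6 nM) and the CTNNB1-mutated HEC265 (5.6 nM). Each line had its own dose, so line and dose cannot be told apart. Cells were plated in duplicate, and nothing in the labels makes the duplicates separate experiments. The p-values thus measure only the spread between duplicate libraries, which may be technical. That spread was pooled over all 16 groups of the 32 libraries, so it comes largely from groups outside the comparison.

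Paclitaxel is a taxane that binds beta-tubulin within microtubules and stabilises them, so that dividing cells are held in mitosis and may then die or leave it without dividing. Cells tune their tubulin mRNA to the pool of free tubulin: alpha- and beta-tubulin mRNAs are degraded during translation when free dimers are in excess and last longer when the pool is low. NF-kappaB is a family of transcription factors kept in the cytoplasm by inhibitors such as NFKBIA. Once released it switches on chemokines, survival genes and its own inhibitors. YAP is a transcriptional coactivator that works with TEAD factors and responds to cell shape and tension.

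Depth, given in M (1000000 reads), was even across the main comparison, at 31.3 and 34.1 M with vehicle and 30.6 and 29.8 M with paclitaxel. The SM08502 libraries held 27.5 and 28.1 M, but the combination libraries held 27.0 and 1.61 M, and the counts and calls that rest on the shallow library are given with and without it. Replicates differed by more than counting error, with a root mean square log2 difference of 0.215 between the vehicle and 0.224 between the paclitaxel libraries. The mitochondrially encoded share of reads was 5.37% and 9.99% with vehicle and 4.96% and 8.75% with paclitaxel, so it differed more within than between the groups. Epithelial genes of the endometrium were expressed, with PAX8 between 261 and 405 CPM (reads per 1000000 counted) and EPCAM between 129 and 153 CPM, but SOX17 was at 0 in all 4 libraries and PGR in 3 of them. Summed markers of stroma (8.65 to 11.8 CPM), endothelium (5.94 to 7.97) and smooth muscle (8.40 to 10.5) were low in both groups. The summed level of 10 immune markers was 26.9 and 27.3 CPM with vehicle and 34.0 and 39.4 CPM with paclitaxel. CD68 and ITGAM made up most of it, and 7 of the 10, among them CD3E, CD14 and MS4A1, were under 1 CPM in all 4 libraries. 

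Few transcripts passed the test with paclitaxel alone, and nearly all of the clearest differences were upward. The change is given as the difference in log2(CPM + 1) with its standard error (SE), tested with limma over 17011 genes and called at an adjusted p under 0.05. Only 3 genes (0.0176%) were called, all higher with paclitaxel: ANKRD1, CCL20 and RHOBTB3. At an unadjusted p under 0.05 there were 300 genes (1.76%), 189 of them higher (1.11%) and 111 lower (0.653%). This is fewer than the 5% that such a threshold passes when nothing differs. The count was 693 in a fit to the compared samples alone and 228 in the SNGM samples alone, with no gene called in either. Without the Ishikawa samples, a setting chosen after seeing the data, it was 488. The count thus varied with the libraries that set the spread, and does not measure how many transcripts responded. The change was under 0.5 in either direction for 99.19% of genes, and the median over all genes was 0.01. Both paclitaxel libraries lay above both vehicle libraries for 14.6% of genes and below them for 12.9%. An unadjusted p under 0.01 was reached by 65 genes (0.382%). Of these, 35 also had a mean log2 level of at least 3 and no overlap between the groups, 32 of them higher (0.188% of all genes) and 3 lower, and 8 of the 32 belong to the list of NF-kappaB response genes. Each value is a share of the RNA of a whole culture, so more RNA per cell and more cells in a given state cannot be told apart.

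ANKRD1 encodes a nuclear ankyrin-repeat protein that YAP and TEAD factors induce. It stood at 9.01 and 8.26 CPM with vehicle and rose to 16.2 and 18.98 CPM with paclitaxel. The groups did not overlap, and the mean was 2.04-fold higher (log2 change 0.94, SE 0.16; limma adjusted p = 0.028). CCL20, the chemokine ligand of CCR6, rose from 2.49 and 2.58 CPM to 5.19 and 4.73 CPM (log2 change 0.75, SE 0.12; limma adjusted p = 0.028). RHOBTB3, a protein that binds and hydrolyses ATP, rose from 1.25 and 1.61 CPM to 2.90 and 2.99 CPM (log2 change 0.70, SE 0.10; limma adjusted p = 0.0058). CCL20 and RHOBTB3 were low in every SNGM library. RHOBTB3 overlaps SPATA9 in RefSeq while the strand of counting is not given, so its reads are not certain to be its own. Leaving out any 1 of the 4 libraries ended the calls of ANKRD1 (adjusted p 0.091 to 0.93) and CCL20 (0.34 to 0.62), and only RHOBTB3 without vehicle library 2 stayed called (0.0093). A fit to the SNGM libraries alone called none of the 3, with 228 genes at an unadjusted p under 0.05. A fit with a block for replicate number within line also called none (smallest limma adjusted p = 0.061).

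**Figure D1:**
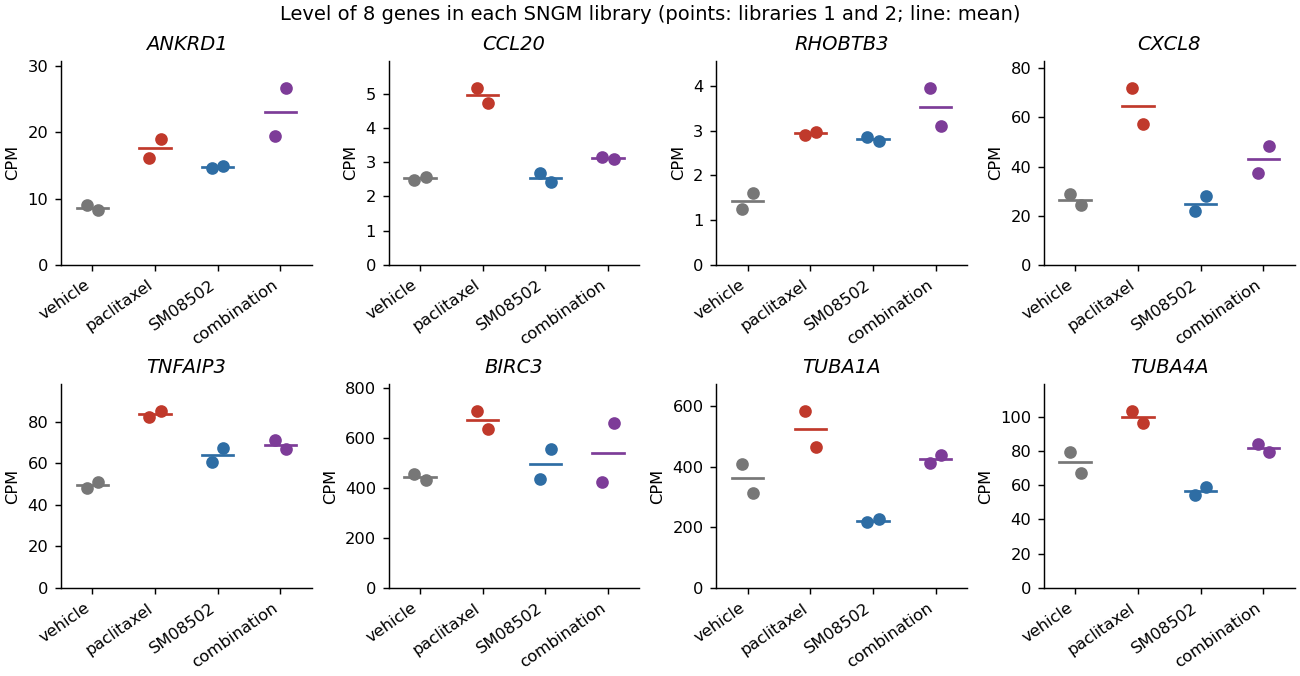
Level in CPM (vertical axes, linear from 0) of 8 genes in each SNGM library of the 4 treatments, with the 2 libraries of a group as points and their mean as a line. In all 8 genes both paclitaxel libraries lie above both vehicle libraries, and the combination libraries lie above both SM08502 libraries in ANKRD1, CCL20, RHOBTB3, CXCL8, TUBA1A and TUBA4A; the second combination library is the shallow one of 1.61 M reads.

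The list with the highest median change was that of NF-kappaB response genes. The promoters of 4 of its members are shown because these genes were higher together and carry the letters GGAANNNCC, a kappaB-type motif, within 250 bases upstream of the RefSeq start (GRCh38.p14). Capitals mark each match on either strand. The windows are chr4:73740319-73740568 (+) for CXCL8, chr2:227813592-227813841 (+) for CCL20, chr4:74099196-74099445 (-) for CXCL2 and chr6:137867009-137867258 (+) for TNFAIP3. 
CXCL8: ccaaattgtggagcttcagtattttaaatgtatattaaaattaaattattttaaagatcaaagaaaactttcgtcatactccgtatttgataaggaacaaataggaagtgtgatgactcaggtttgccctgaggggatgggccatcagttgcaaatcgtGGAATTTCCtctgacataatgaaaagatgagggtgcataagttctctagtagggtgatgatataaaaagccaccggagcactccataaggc
CCL20: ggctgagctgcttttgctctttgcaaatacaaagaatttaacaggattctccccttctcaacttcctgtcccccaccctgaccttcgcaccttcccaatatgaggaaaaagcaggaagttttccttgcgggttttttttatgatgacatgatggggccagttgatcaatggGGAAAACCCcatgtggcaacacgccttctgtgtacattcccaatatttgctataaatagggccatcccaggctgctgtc
CXCL2: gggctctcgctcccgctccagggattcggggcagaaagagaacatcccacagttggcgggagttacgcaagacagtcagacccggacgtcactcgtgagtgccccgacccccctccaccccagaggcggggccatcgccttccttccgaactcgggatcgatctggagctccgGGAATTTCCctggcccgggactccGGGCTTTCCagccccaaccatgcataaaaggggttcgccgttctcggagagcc
TNFAIP3: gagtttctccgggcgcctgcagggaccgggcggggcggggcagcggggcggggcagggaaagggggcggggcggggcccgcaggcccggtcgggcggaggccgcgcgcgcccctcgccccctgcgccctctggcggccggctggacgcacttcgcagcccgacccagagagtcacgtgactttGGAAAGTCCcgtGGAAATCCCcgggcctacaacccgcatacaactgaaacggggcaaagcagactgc
The nearest match began 91 bases before the start in CXCL8, 79 in CCL20, 53 in CXCL2 and 55 in TNFAIP3, and the last 2 genes each hold 2 matches. Of 18 list members with a RefSeq promoter, 13 held the motif, against 17.13% of 27305 promoters of that length. It was in 6 of 18 promoters of the YAP target list and in none of the 16 tubulin promoters. A match describes letters, not a bound site. The list was chosen as NF-kappaB response genes, so its motif share does not bear on the paclitaxel change.

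All 23 listed NF-kappaB response genes passed the filter on low values. With paclitaxel, 13 were higher at an unadjusted p under 0.05 (1.11% of all genes) and none was lower, but only CCL20 was called. Without CCL20, which was known to be called when the list was written, the count was 12 of 22. Like the other lists, this one was written with earlier results of these data known, so its counts are not independent of them. Both paclitaxel libraries exceeded both vehicle libraries in 20 of the 23, against 14.6% of all genes, and were below them in 1. The median log2 change of the list was 0.39, against 0.01 over all genes. Over the 4 fits that left out 1 library, between 8 and 12 members passed the unadjusted threshold and the median stayed between 0.33 and 0.42.

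Among the secreted members, CXCL8, the neutrophil chemokine interleukin-8, had the largest difference. Its level was 28.7 and 24.2 CPM with vehicle and 72.1 and 57.2 CPM with paclitaxel, a 2.44-fold higher mean with no overlap. The log2 change was 1.25 (SE 0.23) and did not pass correction (limma adjusted p = 0.080). CXCL2, another neutrophil chemokine, was at 11.1 and 11.6 CPM and then at 18.1 and 17.6 CPM (log2 change 0.61, SE 0.13). The related CXCL1 was at 7.92 and 8.53 CPM with vehicle and at 13.2 and 13.8 CPM with paclitaxel, and CXCL3 was under 1 CPM in all 4 libraries. CXCL1, CXCL2 and CXCL3 are near-identical copies, so reads may be shared among them. CCL2, a monocyte chemokine, was at 32.6 and 27.6 CPM and then at 43.9 and 39.1 CPM.

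The inhibitors of the pathway are themselves among its targets. TNFAIP3, a ubiquitin-editing enzyme that shuts the pathway off, was at 47.8 and 50.8 CPM with vehicle and 82.2 and 85.2 CPM with paclitaxel. This was a log2 change of 0.75 (SE 0.20) with an unadjusted limma p of 0.00095. NFKBIA, the inhibitor that holds NF-kappaB in the cytoplasm, was at 181 and 156 CPM and then at 227 and 205 CPM, and NFKBIE, its relative, had a log2 change of 0.39 (SE 0.14). Of the transcription factor subunits, RELB went from 19.2 and 19.4 CPM to 29.0 and 28.3 CPM (log2 change 0.55, SE 0.16), while NFKB2 (0.41, SE 0.24), NFKB1 (0.28, SE 0.19) and REL (-0.01, SE 0.19) had unadjusted p-values above 0.05. Of these 4 subunit genes, RELB passed the unadjusted threshold.

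Among the survival genes of the list, BIRC3, an inhibitor of apoptosis and ubiquitin ligase, was at 455 and 430 CPM with vehicle and 708 and 636 CPM with paclitaxel (log2 change 0.60, SE 0.17). Its neighbour and relative BIRC2 had a log2 change of 0.30 (SE 0.13). SOD2, the mitochondrial superoxide dismutase, was at 904 and 909 CPM and then at 1235 and 1122 CPM, although it overlaps 5 other RefSeq genes. The 2 members below 0 were REL and IL1B (-0.15, SE 0.16), the gene of interleukin-1 beta. In 2 lists of nearby programmes, interferon-stimulated genes had 0 of 21 members past the unadjusted threshold with a median of 0.03, and immediate early genes had 1 of 20, JUNB (log2 change 0.43, SE 0.14).

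**Figure D2:**
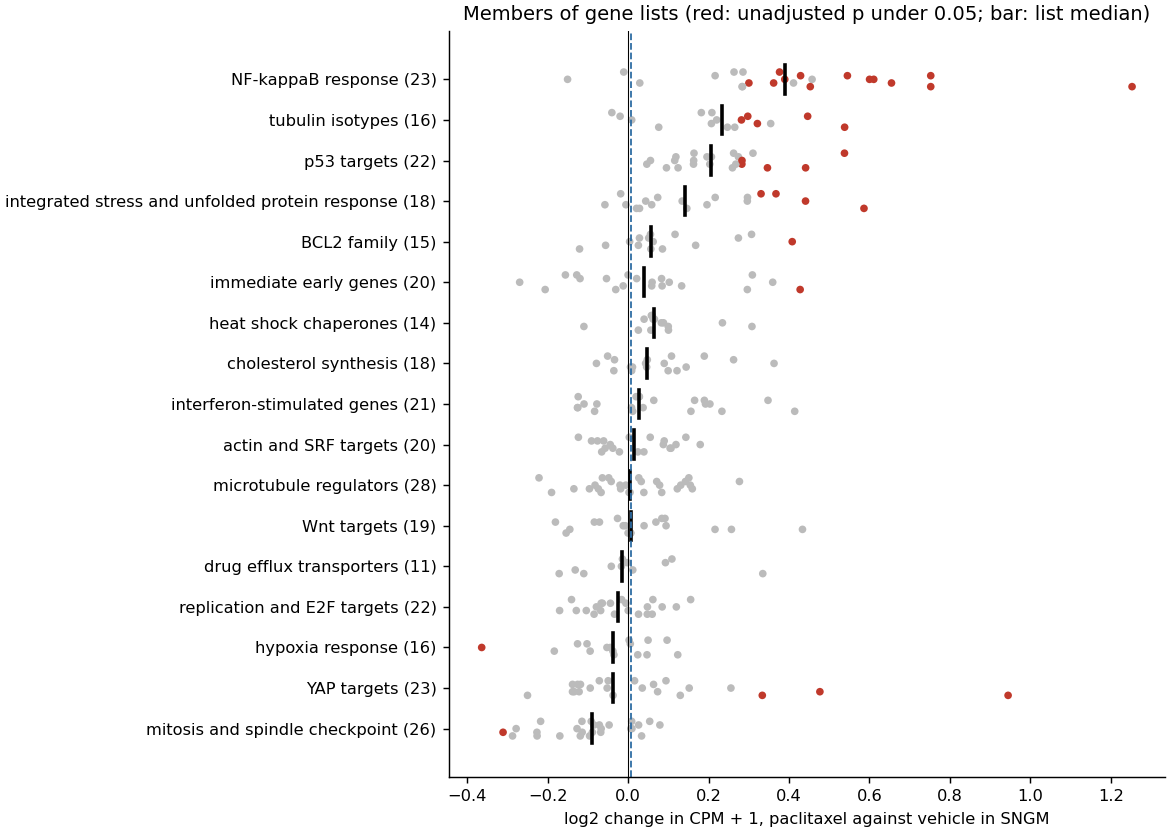
Log2 change in CPM + 1 with paclitaxel (horizontal axis) of each tested member of the gene lists shown, with the number of tested members after each name, red for an unadjusted p under 0.05 and a bar at the list median. The dashed line is the median of all genes, 0.01; the NF-kappaB, tubulin and p53 medians are at 0.39, 0.23 and 0.21, and the mitosis median is at -0.09.

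Other inflammatory genes stand outside that list. SERPINA3, the acute-phase antichymotrypsin, named after its values were seen, had low levels of 1.79 and 1.11 CPM with vehicle and 4.70 and 4.39 CPM with paclitaxel (log2 change 1.19, SE 0.21; limma adjusted p = 0.054). SAA1, another acute-phase protein, went from 31.7 and 24.2 CPM to 43.2 and 40.3 CPM. IRAK2, a kinase below interleukin-1 and Toll-like receptors, went from 37.6 and 31.2 CPM to 55.96 and 52.6 CPM. TNF, the cytokine that itself activates NF-kappaB, had a log2 change of 0.50 (SE 0.14), and IRF1, an interferon regulatory transcription factor, one of 0.45 (SE 0.14). ITGAM, the integrin alpha-M subunit best known from myeloid cells, went from 8.02 and 5.36 CPM to 11.0 and 11.9 CPM, while PTPRC, the pan-leukocyte marker, was between 1.85 and 2.38 CPM in the 4 libraries. SERPINA3, SAA1, IRAK2, TNF, IRF1 and ITGAM had no overlap between the groups, and none of them passed correction in this comparison. The unadjusted limma p-values of SAA1, IRAK2 and ITGAM were 0.0011, 0.0052 and 0.0015.

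Tubulin genes, which encode the drug's target, formed the next group. All 16 listed isotypes were tested: 5 were higher at an unadjusted p under 0.05 (1.11% of all genes), none was lower and none was called. Those 5 were TUBA1A, TUBA1B, TUBA1C, TUBA4A and TUBB3. All 12 alpha- and beta-tubulin genes had a change above 0, from 0.18 to 0.54 with a median of 0.27, and in 9 of the 12 both paclitaxel libraries lay above both vehicle libraries (14.6% of all genes). The 4 gamma, delta and epsilon tubulins, which serve microtubule nucleation and centrioles and are not part of the dimer, had changes between -0.04 and 0.08.

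TUBA1A had 411 and 314 CPM with vehicle and 586 and 465 CPM with paclitaxel, a log2 change of 0.54 (SE 0.16). The groups did not overlap, though the lower paclitaxel library was near the higher vehicle library. TUBA4A had 79.5 and 67.3 CPM and then 103.7 and 96.4 CPM (log2 change 0.45, SE 0.10; limma adjusted p = 0.34). TUBA1B, the most abundant isotype here, had 2077 and 1670 CPM with vehicle and 2523 and 2147 CPM with paclitaxel. TUBB3, the neuronal beta-tubulin often studied in taxane resistance, had 328 and 290 CPM and then 386 and 372 CPM (log2 change 0.30, SE 0.11). TUBA1A, TUBA1B and TUBA1C are near-identical copies, so their separate values are uncertain, and TUBA4A overlaps TUBA4B and STK16. Leaving out vehicle library 2 or paclitaxel library 1 left 1 tubulin past the unadjusted threshold, and leaving out vehicle library 1 gave 8, with list medians of 0.16, 0.20 and 0.32. Among 28 regulators that act on microtubules without being tubulins, none passed the unadjusted threshold, and their median was 0.00.

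Targets of p53, the tumour suppressor that halts the cell cycle after damage or a prolonged mitosis, lay on 1 side of 0. All 22 listed targets had a change above 0, from 0.05 to 0.54 with a median of 0.21, and 14 had no overlap between the groups, with both paclitaxel libraries above (14.6% of all genes). At an unadjusted p under 0.05 there were 5 of 22 (1.11% of all genes), and none was called. Other lists were also one-sided: 80 of 82 ribosomal protein genes were above 0 (median 0.11), and 35 of 47 genes with long transcripts were below 0 (median -0.06). Subtracting the average log2 level of the ribosomal protein genes from that of the genes with long transcripts gives each library a length score, which was -0.50 and -0.03 with vehicle and -0.59 and -0.27 with paclitaxel. With that score in the fit the p53 median was 0.22, against 0.02 over all genes, with 7 of 22 past the unadjusted threshold. The higher genes at that threshold also increased in this fit, from 189 to 508 of the 17011. CDKN1A, the p21 inhibitor of cyclin-dependent kinases, was at 710 and 607 CPM with vehicle and 879 and 794 CPM with paclitaxel (log2 change 0.35, SE 0.13). MDM2, the ubiquitin ligase that degrades p53, was at 482 and 442 CPM and then at 593 and 532 CPM. GDF15, a stress-induced cytokine, was at 234 and 218 CPM and then at 317 and 340 CPM (log2 change 0.54, SE 0.15). FAS, a death receptor, had a log2 change of 0.44 (SE 0.16), and SESN1, a nutrient-sensing brake on mTORC1, one of 0.28 (SE 0.12). BAX, which permeabilises mitochondria, was close to 0 (0.06, SE 0.10). In the BCL2 family 1 of 15 genes, the pro-apoptotic PMAIP1, passed the unadjusted threshold (0.41, SE 0.19). Without vehicle library 2 or without paclitaxel library 1 the p53 count was 1, and the list median ranged from 0.15 to 0.33 over the 4 fits that left out a library.

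ANKRD1 and CTGF, another secreted YAP target that shapes the matrix, were both higher, while 11 of the 23 members of the YAP target list they belong to were above 0. Their upstream windows, chr10:90921088-90921337 (-) and chr6:131951373-131951622 (-), are shown with the TEAD core letters GGAATG in capitals on either strand, because these 2 members met the rule on level, separation and p. 
ANKRD1: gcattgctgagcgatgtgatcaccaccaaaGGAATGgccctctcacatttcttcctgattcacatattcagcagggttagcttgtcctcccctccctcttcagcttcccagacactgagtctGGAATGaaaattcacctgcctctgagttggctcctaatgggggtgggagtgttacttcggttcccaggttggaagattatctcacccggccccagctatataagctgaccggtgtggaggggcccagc
CTGF: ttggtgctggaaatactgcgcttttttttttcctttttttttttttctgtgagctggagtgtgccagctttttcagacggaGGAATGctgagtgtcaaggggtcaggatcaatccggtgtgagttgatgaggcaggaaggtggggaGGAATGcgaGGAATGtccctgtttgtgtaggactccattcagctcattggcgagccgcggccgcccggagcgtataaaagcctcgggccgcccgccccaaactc
The core was found 2 times in ANKRD1 and 3 times in CTGF (RefSeq symbol CCN2). It was present in 6 of 18 matched YAP-list promoters and in 11.9% of all. All 6 letters of the core can lie within the kappaB-type motif, and 1 stretch in CTGF and 1 in ANKRD1 match both. CTGF was at 19.2 and 16.1 CPM with vehicle and 24.8 and 25.02 CPM with paclitaxel (log2 change 0.48, SE 0.16; limma adjusted p = 1). F3, the coagulation initiator tissue factor, was the third of 23 members past the unadjusted threshold (0.33, SE 0.12). The median of the list was -0.04, and its sign turned to 0.03 without vehicle library 2 or paclitaxel library 1 and to 0.06 with the length score in the fit. CYR61, the close relative of CTGF, was at 397 and 377 CPM with vehicle and 373 and 374 CPM with paclitaxel. CYR61 was named after its values were seen. Of 20 actin and SRF targets none passed the unadjusted threshold.

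The 3 lower genes that met the rule on level and separation were RHOB, WSB1 and ANKRD36C. RHOB, an endosomal GTPase, was at 355 and 321 CPM with vehicle and 287 and 270.0 CPM with paclitaxel (log2 change -0.28, SE 0.09). WSB1, a substrate receptor of a ubiquitin ligase, was at 142.5 and 158.5 CPM and then at 129 and 109 CPM, and ANKRD36C was at 48.8 and 63.1 CPM and then at 40.3 and 39.9 CPM. ANKRD36C has near-identical copies, so its reads are uncertain. None of the 3 passed correction.

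Mitotic genes had small differences, mostly downward. Of 26 genes of mitosis and the spindle checkpoint, 10 had both paclitaxel libraries below both vehicle libraries, against 12.9% of all genes, and none had both above. The median log2 change was -0.09. Only CCNB2, a cyclin of mitotic entry, passed the unadjusted threshold, at 34.4 and 30.7 CPM with vehicle and 29.2 and 23.1 CPM with paclitaxel (log2 change -0.31, SE 0.14). PLK1, a kinase of spindle assembly, had -0.23 (SE 0.15), CDC20, the activator of the anaphase-promoting complex, -0.22 (SE 0.11), and KIF20A, a kinesin of cytokinesis, -0.28 (SE 0.16). CCNB1, the partner of CDK1, had -0.17 (SE 0.15), and without vehicle library 1 its change was 0.00. These 4 were named after their values were seen. Without vehicle library 1 the list median was -0.03, and without vehicle library 2 it was -0.18. Among 22 replication and E2F targets none passed the unadjusted threshold, and the median was -0.02, with its sign turned without vehicle library 1 (0.04) or paclitaxel library 2 (0.01).

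Stress genes showed a few single members. In the list of the integrated stress and unfolded protein responses, 4 of 18 genes were higher at an unadjusted p under 0.05 (1.11% of all genes) and none was lower, with a median of 0.14. Without vehicle library 2 the count was 1 and the median 0.05, with 9 of 18 above 0, and without paclitaxel library 1 the count was 2 (median 0.10). CHAC1, which degrades glutathione, was at 8.30 and 5.39 CPM with vehicle and 11.9 and 9.36 CPM with paclitaxel. TRIB3, a pseudokinase induced by ATF4, had a log2 change of 0.37 (SE 0.12), SLC7A11, the cystine importer, 0.33 (SE 0.13) and CEBPB, a transcription factor, 0.44 (SE 0.18). ATF4 and DDIT3, the transcription factors at the centre of the response, were near 0 (0.02, SE 0.11, and -0.01, SE 0.15). The 32 higher genes also held TXNRD1, a thioredoxin reductase (0.37, SE 0.12), SRXN1, a sulfiredoxin (0.25, SE 0.08), and SQSTM1, an autophagy receptor (0.32, SE 0.11). None of 14 heat shock chaperones, 18 cholesterol synthesis genes, 11 drug efflux transporters or 19 Wnt targets that were tested passed the unadjusted threshold.

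Among matrix and EMT genes, MMP7, an epithelial matrix metalloproteinase, was at 40.8 and 30.4 CPM with vehicle and 57.7 and 46.1 CPM with paclitaxel (log2 change 0.54, SE 0.19). PLAUR, the urokinase receptor, was at 11.3 and 10.8 CPM and then at 16.4 and 17.2 CPM (0.56, SE 0.23). TIMP3, an inhibitor of metalloproteinases, was at 0.447 and 0.615 CPM with vehicle and 0.489 and 3.05 CPM with paclitaxel. The groups overlapped for TIMP3, and its change of 0.68 (SE 0.30) became -0.04 without paclitaxel library 2. VIM, CDH2 and ZEB1, the textbook mesenchymal genes of the list, had changes of -0.04 (SE 0.16), 0.06 (SE 0.16) and -0.01 (SE 0.19), and none of 17 epithelial junction and mucin genes passed the unadjusted threshold.

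The combination against SM08502 gave a second look at paclitaxel in the same line, with no library in common. It holds the shallow library. It called 43 genes (0.253%), and 1797 (10.6%) were higher and 907 (5.33%) lower at an unadjusted p under 0.05. Leaving the shallow library out gave 0 calls. Of the 32 higher genes named above, 27 were again above 0, against 51.05% of all genes, and 10 passed the unadjusted threshold upward (10.6% of all genes). Without the shallow library 26 were above 0, against 63.56% of all genes. The deep combination library alone lay above both SM08502 libraries for 24 of the 32, against 47.9% of all genes. Genes with an unadjusted p under 0.01 and 1 sign in both comparisons, and a mean log2 level of at least 3, numbered 9 (0.0529%), all higher: ANKRD1, CTGF, CXCL2, CXCL8, H1F0, IRF1, PLPP3, TUBA1A and TUBA4A. Of these, CTGF, CXCL2, H1F0, TUBA1A and TUBA4A kept an unadjusted p under 0.01 in the combination comparison without the shallow library.

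**Figure D3:**
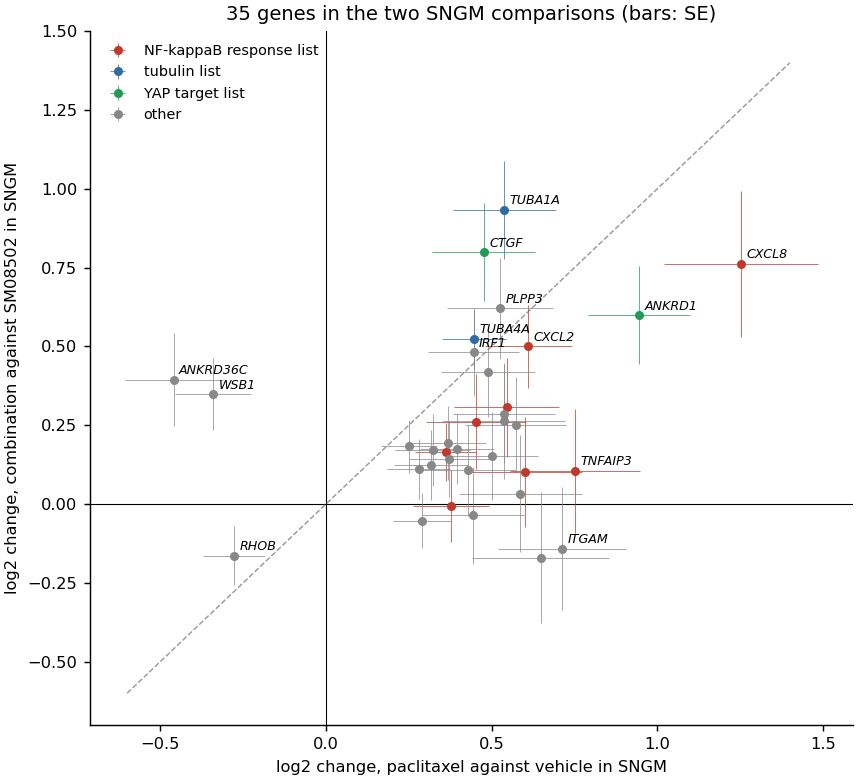
Log2 change with paclitaxel against vehicle (horizontal axis) and with the combination against SM08502 (vertical axis) of the 35 genes that met the rule on level, separation and p, with standard errors as bars and the dashed line at equal changes. TUBA1A and CTGF lie above the line at 0.93 and 0.80 on the vertical axis, while ITGAM (-0.14), TNFAIP3 (0.11) and the lower genes WSB1 (0.35) and ANKRD36C (0.40) lie away from it.

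Tubulin genes were higher with paclitaxel on SM08502 too. There, 10 of 16 were higher at an unadjusted p under 0.05 (10.6% of all genes), and the median was 0.27. Without the shallow library the count was 6 (5.12% of all genes) and the median 0.31. The deep combination library lay above both SM08502 libraries for 15 of 16. TUBA1A was at 217 and 228 CPM with SM08502 and 412 and 439 CPM with the combination, a called rise (log2 change 0.93, SE 0.16; limma adjusted p = 0.020). TUBA4A rose from 54.4 and 58.8 CPM to 84.0 and 79.7 CPM (limma adjusted p = 0.031). Without the shallow library these changes were 0.89 (SE 0.19) and 0.56 (SE 0.12), and neither was called (limma adjusted p = 0.27 and 0.22). With SM08502 alone the list median was -0.29 against vehicle, and the combination libraries had more TUBA1A than both vehicle libraries and less than both paclitaxel libraries.

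NF-kappaB response genes had a lower median on SM08502 than without it. It was 0.11, or 0.18 without the shallow library. At an unadjusted p under 0.05, 3 of 23 were higher, near the 10.6% of all genes, and 3 of 23 without the shallow library (5.12% of all genes). CXCL8 was at 22.0 and 27.8 CPM with SM08502 and 37.5 and 48.5 CPM with the combination, and CXCL2 at 10.8 and 12.6 CPM and then at 16.5 and 17.4 CPM. TNFAIP3 was at 60.4 and 67.4 CPM and then at 70.9 and 66.6 CPM, so its groups overlapped. The difference between the effects with and without SM08502 was itself tested. It subtracts the same paclitaxel and vehicle values in which the list stood out, so counts of its members are not independent of that. In this test 5 of 23 members had a smaller effect with SM08502 at an unadjusted p under 0.05, against 2.09% of all genes. The 1 gene called (0.00588%) was not on the list. These members were CCL20 (-0.53), TNFAIP3 (-0.65), CXCL1 (-0.96), CXCL3 (-0.59) and SOD2 (-0.38), of which CCL20, CXCL1 and CXCL3 rest on 5, 4 and 0 reads in the shallow library. Without that library 4 of 23 members passed, against 0.788% of all genes: CCL20 (-0.53), SOD2 (-0.49), BIRC3 (-0.82) and BIRC2 (-0.34), while TNFAIP3 (-0.60), CXCL1 (-0.17) and CXCL3 (-0.30) did not.

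The mean of the 2 paclitaxel effects in SNGM, with and without SM08502, called 10 genes (0.0588%). The 9 that rose were ANKRD1, CCL20, CTGF, CXCL2, CXCL8, RHOBTB3, SERPINA3, TUBA1A and TUBA4A, and the 1 that fell was PSG4, a pregnancy-specific glycoprotein with near-identical relatives. CXCL8 rose by 1.01 (SE 0.16; limma adjusted p = 0.012), SERPINA3 by 1.06 (SE 0.15; adjusted p = 0.0032), ANKRD1 by 0.77 (SE 0.11; adjusted p = 0.0032) and CTGF by 0.64 (SE 0.11; adjusted p = 0.020). TUBA1A rose by 0.74 (SE 0.11; adjusted p = 0.0043), TUBA4A by 0.49 (SE 0.07; adjusted p = 0.0032) and CXCL2 by 0.56 (SE 0.09; adjusted p = 0.015). PSG4 was at 13.7 and 11.7 CPM with vehicle, 10.7 and 8.92 CPM with paclitaxel, 21.3 and 25.1 CPM with SM08502 and 14.5 and 9.96 CPM with the combination. These calls draw on both comparisons and so on the shallow library too, without which 6 genes were called: ANKRD1, RHOBTB3, SERPINA3, TUBA1A and TUBA4A, of those named, and CXCL1. The calls of CCL20 (limma adjusted p = 0.080), CTGF (0.084), CXCL2 (0.060), CXCL8 (0.084) and PSG4 (0.18) ended without it.

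Side by side with the other lines, which share no library with SNGM, the NF-kappaB list had its highest median in SNGM. The median change of the 23 genes with paclitaxel was 0.04 in Ishikawa, -0.02 in Ishikawa-S33Y and 0.12 in HEC265, and 1 member in each passed the unadjusted threshold upward (3.56%, 0.417% and 0.723% of all genes in these lines). The Ishikawa values are the least certain. Its 2 paclitaxel libraries had a root mean square log2 difference of 0.576, against 0.090 in Ishikawa-S33Y and 0.098 in HEC265. They also enter the mean of the other lines used below. In HEC265, 18 of the 23 were above 0, and in 15 both paclitaxel libraries lay above both vehicle libraries, against 28.8% of all genes there. The SNGM effect minus the mean of the others was higher at an unadjusted p under 0.05 in 12 of the 23, against 0.882% of all genes, with a median of 0.42. No gene of any kind (0.0%) was called in that difference (limma; 342 at an unadjusted p under 0.05). Its values were 1.26 for CXCL8 (unadjusted p = 0.00012), 0.80 for CCL20 (1.5e-05), 0.51 for CXCL2 (0.0030) and 0.57 for TNFAIP3 (0.021). ANKRD1 and RHOBTB3 had differences of 0.85 (unadjusted p = 0.00011) and 0.69 (3.7e-06). Since the genes were chosen from the SNGM values, these p-values are not independent of that choice. Some members were also barely expressed elsewhere. In the vehicle and paclitaxel libraries of the other lines CCL20 reached at most 0.75 CPM and CXCL2 at most 0.30 CPM. CXCL1 and CXCL3 were at 0 in those of HEC265. The log2(CPM + 1) scale understates changes at such levels, so a weaker response and a low level cannot be told apart for these genes. RHOBTB3 had the opposite pattern, being low in SNGM only, with 1.25 and 1.61 CPM in the vehicle libraries. Its vehicle levels were 391 and 385 CPM in HEC265, 63.0 and 59.3 CPM in Ishikawa and 34.2 and 30.8 CPM in Ishikawa-S33Y.

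The tubulin and p53 lists had other orders across the lines. Tubulins had a median of 0.23 in Ishikawa-S33Y, equal to that in SNGM, and medians of 0.04 in Ishikawa and 0.03 in HEC265. In Ishikawa-S33Y 5 of 16 passed the unadjusted threshold upward, against 0.417% of all genes there. TUBA1A had a change above 0 in every line, 0.42, 0.49 and 0.25 in Ishikawa, Ishikawa-S33Y and HEC265. The p53 targets had their highest median in HEC265, at 0.30, while the medians were -0.08 in Ishikawa and 0.01 in Ishikawa-S33Y. In HEC265 12 of 22 passed the unadjusted threshold upward, against 0.723% of all genes there. The SNGM effect minus the mean of the others passed the unadjusted threshold upward for 1 tubulin, TUBA4A (0.30, SE 0.11), and 1 p53 target, GDF15 (0.56, SE 0.18). Of the 32 higher SNGM genes, 28 were above 0 in HEC265, 16 in Ishikawa-S33Y and 13 in Ishikawa, where 58.8%, 54.99% and 48.05% of all genes were above 0. Over the 10356 genes with a mean log2 level of at least 3, the Pearson correlation with the SNGM change was 0.195, -0.013 and -0.102 in these lines.

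**Figure D4:**
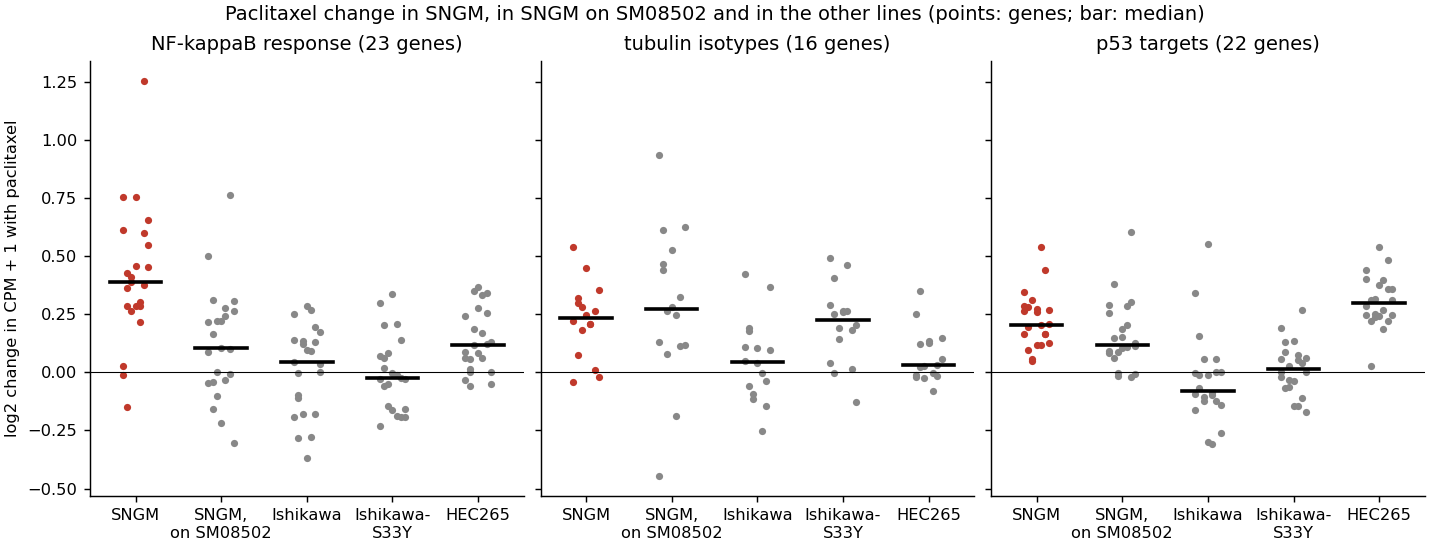
Log2 change in CPM + 1 with paclitaxel (vertical axis) of the tested members of 3 gene lists, in SNGM, in SNGM on SM08502 and in the other lines, with members as points and the list median as a bar. The NF-kappaB median is 0.39 in SNGM and at most 0.12 elsewhere, the tubulin median is 0.23 in SNGM, 0.27 on SM08502 and 0.23 in Ishikawa-S33Y, and the p53 median is highest in HEC265, at 0.30.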

How the data were processed

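The authors deposited log10 of CPM plus 1 for 35238 genes in 32 libraries. Per the submitters' processing notes bcl2fastq, kallisto, STAR and GRCh38 were used, with no role given. The counting program, annotation and strand are not given in the sources used here. Per the labels' protocols, 500 ng of RNA from SNGM (350 ng from Ishikawa) was depleted of ribosomal RNA with FastSelect and made into KAPA HyperPrep libraries.

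Taken back to CPM, the values of a library add up to 1000000 and are whole reads for 100% of values (tolerance 0.01 read), which gave the depth. The test covered 17011 genes above 1 CPM in 2 or more samples, as log2(CPM + 1), which understates changes of low genes, in 1 limma fit (limma 3.58.1, R 4.3.3) with a mean for each of 16 groups, an intensity trend, residual degrees of freedom of 16 and 4.90 from the prior. Tests were two-sided, with Benjamini-Hochberg adjustment over all genes and calls at an adjusted p under 0.05. All 16 groups share 1 spread because each has 2 libraries. The procedure was tested on simulated data.

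The members and gene lists were chosen with earlier results of these data known. Named genes were every called gene, the 12 largest differences each way with an unadjusted p under 0.01, a mean log2 level of at least 3 and no overlap of the groups, the 4 largest shared with the combination comparison at an unadjusted p under 0.01, the 3 largest each way called in the other SNGM contrasts, and list members. Other members of the set of 35 were also named. Promoters and overlaps came from RefSeq (GRCh38.p14). Single results for some genes are not reported here.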

Additional observations from a re-analysis of the deposited data

Results flagged for a closer look

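LUC7L, which encodes a splicing factor associated with the U1 snRNP, was singled out because its paclitaxel effect differed between cells with and without SM08502 by a test of the difference itself. The effect with SM08502 minus that without was 0.84 on the log2 scale (SE 0.13), the only called gene of that contrast (0.00588% of genes; limma adjusted p = 0.036). LUC7L was at 33.2 and 38.2 CPM with vehicle, 31.6 and 29.1 CPM with paclitaxel, 29.7 and 28.2 CPM with SM08502 and 42.3 and 47.3 CPM with the combination. The paclitaxel effect was thus -0.23 (SE 0.09) alone and 0.61 (SE 0.09) on SM08502. Without the shallow combination library the difference was 0.76 (SE 0.14) and no longer called (limma adjusted p = 0.12), and with the replicate block its adjusted p was 0.098. Over all alternative settings the adjusted p ranged from 0.00016, without the deep combination library, to 0.97, in the SNGM samples alone.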

How the results depend on the processing

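The count of genes called for paclitaxel against vehicle, reported as 3, was 22 with no filter on low values, 1 with median re-centring, 1 with quantile normalization, 10 with limma voom on recovered reads and 7 without the Ishikawa samples (an alternative chosen after seeing the data), and it was 0 in fits to the SNGM samples or the compared samples alone. Leaving out 1 replicate gave 0 to 1. For the combination against SM08502, reported as 43, these 7 settings gave 132, 0, 24, 13, 117, 0 and 0, the stricter filter gave 25 and the length score (long-transcript minus ribosomal protein gene level of a library) as covariate 288. Leaving out 1 replicate gave 0 to 5018, the highest where only the shallow library was left. For the mean paclitaxel effect, reported as 10, no filter gave 22, the stricter filter 6, a pseudocount of 0.1 gave 5, SNGM samples alone 0, voom 19, the length score 19, no Ishikawa samples 18, and leaving out 1 replicate 4 to 3052. For the effect with minus without SM08502, reported as 1, no filter gave 15, the stricter filter 6, the pseudocount 7, re-centring 0, quantile normalization 0, no intensity trend 2, SNGM samples alone 0, voom 5, the length score 12, no Ishikawa samples 3, and leaving out 1 replicate 0 to 2577. For SNGM minus the other lines, reported as 0, no filter gave 12, the stricter filter, pseudocount, quantile normalization and no trend 1 each, the length score 3, and leaving out 1 replicate 0 to 1.

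With the replicate block (replicate number within line) the counts were 0 for paclitaxel against vehicle, 7 for the combination against SM08502 and 0 for the effect with minus without SM08502. With the block within each pair of groups, also added after seeing the data, they were 0, 0 and 0. Deviations of same-numbered libraries correlated at 0.70 between vehicle and paclitaxel and 0.45 between SM08502 and combination, but at -0.45 to -0.57 across these pairs. The labels name no batch, so their numbers were not taken as pairing in the main fit. Vehicle and paclitaxel libraries of the same number nevertheless deviated alike, and the calls of the main comparison depend on leaving this out.

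The p53 median (0.21) ranged from 0.15 to 0.33 on leaving out 1 replicate. Among 69 named genes, leaving out 1 replicate moved TIMP3 between -0.038 (without paclitaxel replicate 2) and 1.41, and CCNB1 between -0.34 and 0.0015 (without vehicle replicate 1). Over all alternative settings, and not only those that left out a replicate, 12 values of single genes gained and 28 lost their call. The losses were those of ANKRD1 (10 settings), CCL20 (11) and RHOBTB3 (7). For each of these shifts the cause was not tested. The planned edgeR and DESeq2 fits were not run, because the deposited unit is a log value. In the shallow library 3 reads are 1.87 CPM, which limits genes of that level.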
